A study of Mus musculus with 8 samples.

Results

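The renin-angiotensin-aldosterone genes examined here were 9 named mouse genes, taken by gene symbol: Agt, Ace, Agtr1a, Agtr2, Nr3c2, Nr3c1, Atp6ap2, Lnpep and Agtrap. They were chosen with earlier results of these data known. Of these, 8 had a row among the 33249 genes of the deposited table, and all 8 were among the 14028 genes tested, those whose FPKM averaged 0.5 or more. Agtr2, the second angiotensin receptor, was not analysed here. The values came from RNA sequencing of myocardium from Piezo1fl/fl mice, with 2 libraries in each of 4 groups. Mice of the CKO groups carried the Myh6-MerCreMer transgene, a Cre recombinase that is driven in cardiomyocytes and becomes active with tamoxifen. Mice of the fl/fl groups (genotype WT in the labels) were littermates without the transgene. Tamoxifen was given at 4 weeks of age and surgery was done at 8 weeks. Myocardial infarction (MI) was made by tying off the left anterior descending coronary artery for good, and the infarcted hearts were taken at day 42. Sham groups had surgery without ligation. Libraries are named below by the group and replicate number in their labels, such as fl/fl-MI 2. Neither the labels nor the methods state which region of the ventricle was taken, or that each library was a separate animal, so p-values measure the spread between these libraries.

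The deposited counts summed to 73821747 to 88117573 per library, which at 4 counts for each read pair is 18455437 to 22029393 pairs. Levels are given as CPM, the count scaled to the normalized library size, for comparison of 1 gene between libraries. Levels of different genes are compared only as FPKM, which is also scaled to gene length. The mitochondrial genome gave 43.1% to 46.4% of all counts in sham libraries and 19.9% to 24.2% in MI libraries, so the directions below are relative to a typical gene after this was scaled out. The summed CPM of the cardiomyocyte genes Myh6, Tnnt2, Actc1, Tnni3 and Ryr2 was 23646 to 26313 in sham and 13910 to 31931 in MI. Levels of Piezo1 and Esr1 did not follow the genotype labels in every library. Piezo1, the targeted gene, was at 76.7 and 88.3 CPM in the libraries labelled CKO-Sham and at 72.2 and 82.0 in those labelled fl/fl-Sham. After MI it was at 56.3 and 64.6 CPM in CKO-MI and at 53.5 and 64.8 in fl/fl-MI. The deletion was aimed at cardiomyocytes, and the authors checked it by Western blotting of isolated cardiomyocytes. Bulk Piezo1 RNA from myocardium need not show it. Esr1, part of whose coding sequence MerCreMer contains, was at 331, 707 and 402 CPM in fl/fl-MI 2, CKO-MI 1 and CKO-MI 2, and at 5.52 to 8.36 CPM in the other 5 libraries. Thus 1 library labelled fl/fl had this signal and the libraries labelled CKO-Sham did not. Genotype comparisons are given as comparisons of libraries so labelled. No sham library had the signal, and fl/fl-MI 1 was the only MI library without it. In CKO-MI against CKO-Sham, MI and this signal cannot be told apart, and in the averaged MI comparison they largely went together. In fl/fl-MI 2, atrial genes were also high (Bmp10 at 3834 CPM, against 10.3 to 18.8 in the other 7 libraries), and results that rest on this library are given without it as well.

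In this hormone system, angiotensinogen (Agt) is the protein precursor from which the enzyme renin releases angiotensin I. Angiotensin-converting enzyme (Ace) removes its last residues to make angiotensin II, which narrows vessels and promotes hypertrophy and fibrosis in the heart through the receptor encoded by Agtr1a. Angiotensin II also drives the adrenal cortex to secrete aldosterone, the ligand of the mineralocorticoid receptor (Nr3c2). The glucocorticoid receptor (Nr3c1) binds the same DNA element. Ace inhibitors, angiotensin receptor blockers and mineralocorticoid receptor antagonists are all given after MI. Atp6ap2, Lnpep and Agtrap encode proteins that bind prorenin, a small angiotensin fragment or the angiotensin receptor, and the first 2 also have unrelated duties in acidifying vesicles and in glucose transport.

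The coding stretch for angiotensin I shows what the substrate and its enzyme act on. It lies in exon 2 of Agt on the minus strand of chromosome 8 (GRCm38, chr8:124564450-124564479), at codons 30 to 39 of the transcript ENSMUST00000063278. Capitals mark the 8 codons of angiotensin II, and the lower-case end marks the 2 codons whose residues Ace removes.
Agt angiotensin I codons: GACCGCGTATACATCCACCCCTTCcatctc

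Ace has an outer start, used by the long somatic form, and an inner start within the gene, known for the short form of the testis. The 100 bases before each start, and before the start of Agt, are shown from RefSeq promoters on GRCm38.p6. The Ace pair is shown because the Ace transcript values below turn on which start was used, and Agt for comparison. They lie at chr8:124569707-124569806 on the minus strand for Agt, and at chr11:105967848-105967947 and chr11:105975089-105975188 on the plus strand for Ace. Capitals mark TATAA or its reverse complement TTATA.
Agt before the start: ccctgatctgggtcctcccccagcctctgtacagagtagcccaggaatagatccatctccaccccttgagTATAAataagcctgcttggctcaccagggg
Ace before the outer start: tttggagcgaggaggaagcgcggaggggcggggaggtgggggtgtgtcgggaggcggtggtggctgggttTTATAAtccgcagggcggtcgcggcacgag
Ace before the inner start: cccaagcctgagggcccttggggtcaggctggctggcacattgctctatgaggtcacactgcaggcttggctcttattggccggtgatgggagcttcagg

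Agt and the outer start of Ace each held the motif from 30 bases before the start, in Ace as the overlapping pair TTATAA. The inner start of Ace held no match in its whole window of 250 bases before and 50 after the start. Of 32851 RefSeq promoters of that length, 24.9% held TATAA on either strand. The letters AGAACA or TGTTCT, an arm of the element bound by both steroid receptors, were in 19.0% of promoters and in none of these 3 windows. Promoters were matched for 7 of the genes.

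After MI, 4 of the 8 genes changed at a Benjamini-Hochberg adjusted p under 0.05 when the genotypes were averaged (edgeR's quasi-likelihood test over all 14028 genes). Lnpep, Ace and Atp6ap2 rose and Agtr1a fell. In bulk tissue, more or fewer cells of a type and more or less RNA per cell cannot be told apart. Across all genes tested, 40.4% passed in this comparison (22% higher and 18.3% lower), so the share among these genes was near that of the transcriptome. The median log2 fold change of the 8 genes was 0.43, beside 0.03 over all genes. Without fl/fl-MI 2, 6 of the 8 passed (4 higher and 2 lower), as did 50.7% of all genes. Without either fl/fl-Sham library, CKO-Sham 1 or CKO-MI 2, 2 of the 8 passed, and 23.1% to 30.1% of all genes. The groups of 4 sham and 4 MI libraries did not overlap for Lnpep and Atp6ap2 (higher in MI) or Agtr1a (lower), where 40.4% of all genes did not overlap (20.9% higher and 19.5% lower). The smallest p of an exact two-sided permutation test of 4 against 4 libraries is 0.0286.

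**Figure D1:**
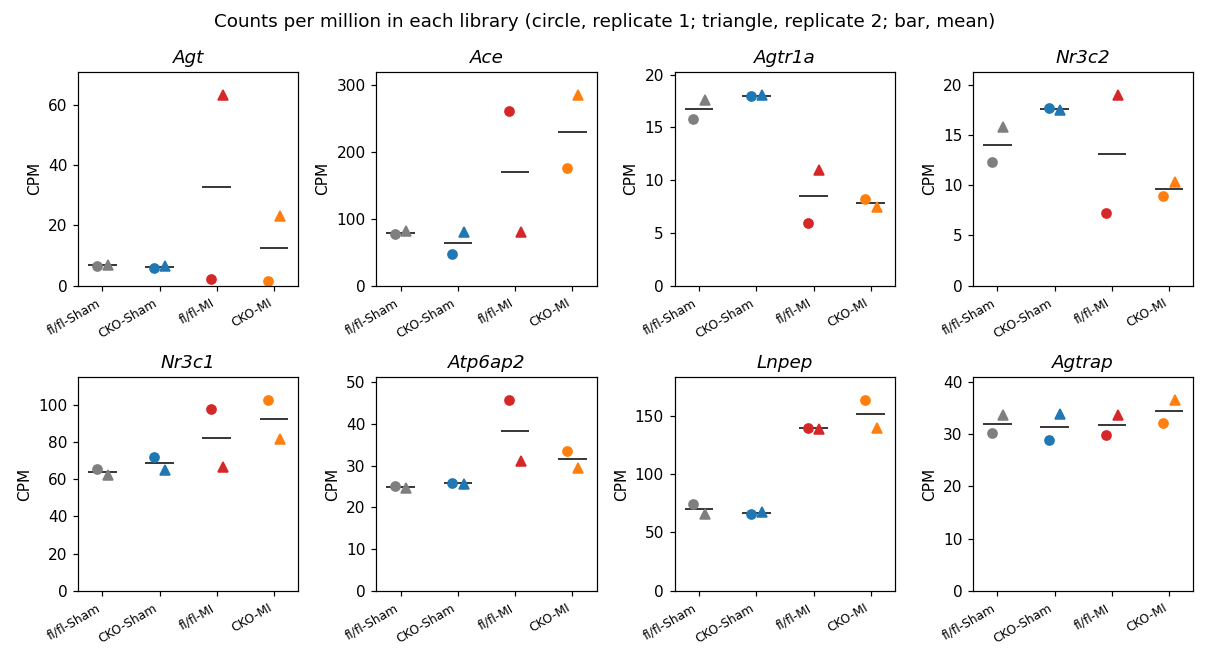
CPM of each of the 8 genes (vertical axes, each from 0) in the 4 groups, with a point for each library and a bar at the mean of 2. Lnpep and Atp6ap2 lay higher and Agtr1a lower in all 4 MI libraries, Agt was above the sham libraries in fl/fl-MI 2 and CKO-MI 2 and below them in fl/fl-MI 1 and CKO-MI 1, and Agtrap lay between 28.9 and 36.6 CPM throughout.

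Agt (ENSMUSG00000031980, chromosome 8 from 124556534 to 124569706, minus strand), the substrate of the system, was the most uneven of the 8 genes after MI. Its level was 6.58 and 6.76 CPM in fl/fl-Sham, 5.82 and 6.55 in CKO-Sham, 2.07 and 63.4 in fl/fl-MI, and 1.58 and 23.2 in CKO-MI. The sham libraries lay close together, while in each MI group 1 library was below all sham libraries and the other above them. These levels stood on 386 to 427 deposited counts in sham libraries, on 219 and 134 in fl/fl-MI 1 and CKO-MI 1, and on 5250 and 2256 in fl/fl-MI 2 and CKO-MI 2. The averaged log2 fold change was 1.65 ± 1.05 (SE, adjusted p = 0.246; exact permutation p = 0.829) and did not pass. Without fl/fl-MI 2 it was −0.34 (adjusted p = 0.726), without CKO-MI 2 it was 0.15 (adjusted p = 0.921), and without fl/fl-MI 1 it was 2.10 with an adjusted p of 0.042.

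A pair of Agt transcripts with the same ends and the same length of 1891 bases were listed. In the sham libraries, fl/fl-MI 1 and CKO-MI 1, ENSMUST00000063278 was listed at 0 and all Agt FPKM was assigned to ENSMUST00000238882. In fl/fl-MI 2 and CKO-MI 2, the first took 53.4% and 56.2% of the gene's FPKM, at 19.4 and 8.73 FPKM. This split between near-identical transcripts is the authors' estimate, and its cause was not tested.

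Marker genes of other tissues were read beside Agt, which is made mainly in liver and also in fat and brain. The 5 liver markers summed to 1.80 to 3.80 CPM in sham libraries and to 0.397, 2.22, 0.402 and 2.28 CPM in fl/fl-MI 1, fl/fl-MI 2, CKO-MI 1 and CKO-MI 2. Both MI libraries with high Agt lay within the sham range for this sum, and those with low Agt lay below it. Among the MI libraries the liver sum was thus split as Agt was. Alb alone was at 0.0945 to 0.299 CPM in all 4 MI libraries. The 4 adipocyte markers summed to 42.9 to 51.8 CPM in sham and to 28.6, 87.4, 42.2 and 41.0 in the MI libraries in the same order. The 3 brain markers Snap25, Gfap and Mbp summed to 17.9 to 31.0 CPM in sham, to 42.9 in fl/fl-MI 2, to 15.0 in CKO-MI 2 and to at most 25.1 in the other MI libraries. Adipocyte and brain sums were thus highest in fl/fl-MI 2, as Agt was, and lay below the sham range in CKO-MI 2. Atrial markers other than Nppa were high in fl/fl-MI 2 only, with Myl4 at 2810 CPM there and 10.2 CPM in CKO-MI 2, where sham libraries had 10.8 to 48.0. The part of these tissues in the Agt level was not tested.

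**Figure D2:**
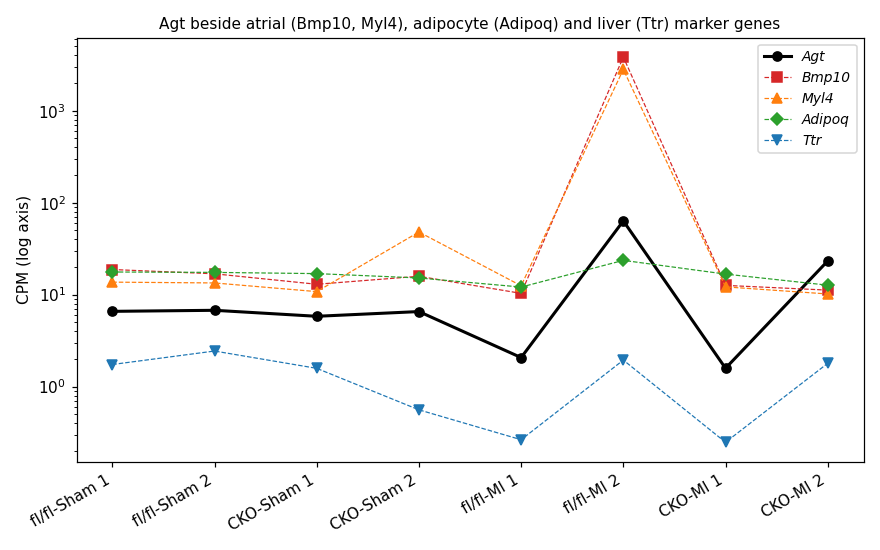
CPM on a log axis in each of the 8 libraries for Agt (solid line) and for the markers Bmp10 and Myl4 (atrial), Adipoq (adipocyte) and Ttr (liver), with dashed lines. Agt peaked at 63.4 CPM in fl/fl-MI 2, where Bmp10 and Myl4 also peaked, and at 23.2 CPM in CKO-MI 2, where they were at 11.2 and 10.2 CPM.

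Renin is released by the kidney, and Ren1 was not analysed here. Other routes to angiotensin peptides were measured. Ctsd, cathepsin D, can cleave angiotensinogen in vitro and was at 475 to 601 CPM in sham and 729 to 881 in MI (log2 fold change 0.56 ± 0.12, adjusted p = 0.0121). Cma1, the mast cell chymase, can make angiotensin II without Ace and was at 0.136 to 0.570 CPM in sham and 0.284 to 1.81 in MI. Its log2 fold change of 1.02 ± 0.67 did not pass (adjusted p = 0.259).

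Ace (ENSMUSG00000020681, chromosome 11 from 105967945 to 105989964, plus strand) was 2.78-fold higher after MI. Its level was 76.4 and 81.3 CPM in fl/fl-Sham, 47.6 and 80.5 in CKO-Sham, 260 and 79.7 in fl/fl-MI, and 175 and 285 in CKO-MI. In 3 MI libraries the level was above every sham library, and fl/fl-MI 2 lay inside the sham range. The log2 fold change was 1.48 ± 0.39 (SE, adjusted p = 0.0219), and the exact permutation p was 0.0857. This call rested on single libraries: the adjusted p was 0.0788 without fl/fl-Sham 1, 0.0768 without fl/fl-Sham 2, 0.0863 without CKO-Sham 1 and 0.0695 without CKO-MI 2, with log2 fold changes of 1.26 to 1.50. Without fl/fl-MI 1 the log2 fold change was 0.91, with an adjusted p of 0.0131, and without fl/fl-MI 2 it was 1.78 with an adjusted p of 0.000726.

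The long somatic form of Ace took most of the summed transcript FPKM of the gene in all libraries. This split between overlapping transcripts is the authors' estimate. The transcript ENSMUST00000001963, which has 25 exons and begins at the outer start printed above, took 80.9% to 92.9% of the summed FPKM. It was at 6.63 to 12.3 FPKM in sham and 16.7 to 68.4 FPKM in MI. The transcript from the inner start, ENSMUST00000001964, has 14 exons and took 0.172% to 1.66%, at no more than 0.267 FPKM. A form of 20 exons, ENSMUST00000132280, took the remaining 6.25% to 18.6%. An antisense gene, Gm11651, overlaps Ace and was at no more than 0.0206 CPM.

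Fibroblast markers moved with Ace. The summed CPM of Col1a1, Pdgfra, Dcn, Lum and Tcf21 was 994 to 1075 in sham and 1370 to 2863 in MI. By the same test 4 of the 5 were higher, where 22% of all genes were. Among the MI libraries fl/fl-MI 2 had both the lowest sum and the lowest Ace. Endothelial markers, from cells that carry most Ace in normal vessels, went the other way, from 1359 to 1585 CPM in sham to 495 to 847 in MI. Of these, 4 of 5 were lower, where 18.3% of all genes were. No marker of either list was at 0. The part of these cell types in the Ace level was not tested. The genes whose log2 CPM followed that of Ace most closely over the 8 libraries were Smurf1 (Pearson r = 0.991) and Parp3 (r = 0.989), given as a description over libraries that share groups.

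Mas1, the receptor of angiotensin 1-7, a peptide that counters angiotensin II, was below the level limit for testing, and was lower still after MI. It was at 1.42 and 1.50 CPM in fl/fl-Sham, 2.27 and 1.60 in CKO-Sham, 0.217 and 0.543 in fl/fl-MI, and 0.189 and 0.0515 in CKO-MI. The groups did not overlap, and in a fit without the limit the log2 fold change was −2.92 ± 0.48 (adjusted p = 0.00102). The CKO-MI 2 value, however, was below the 0.124 CPM that 3 read pairs gave in that library.

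Of 25 other enzymes and receptors of the pathway, 22 had a row and 15 could be tested; Ren1, Cyp11b1 and Cyp11b2 were not analysed here. After MI 5 were higher, 2 were lower and 8 did not pass (40.4% of all genes passed), with a median log2 fold change of 0.27. Without either fl/fl-Sham library or CKO-Sham 1, 4 passed, and 23.1% to 25.3% of all genes. Prep and Nln, oligopeptidases that can cut angiotensin peptides, were higher by 0.93 ± 0.10 and 0.88 ± 0.12 on the log2 scale (adjusted p = 0.00116 and 0.00205), with no overlap between sham and MI libraries. Anpep, aminopeptidase N, was higher by 0.62 ± 0.19 (adjusted p = 0.0376). Enpep, aminopeptidase A, which turns angiotensin II into angiotensin III, did not pass (0.27 ± 0.18, adjusted p = 0.251). Neither did Prcp, a carboxypeptidase that degrades angiotensin II (−0.02 ± 0.12), nor Rnpep (0.07 ± 0.12).

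**Figure D3:**
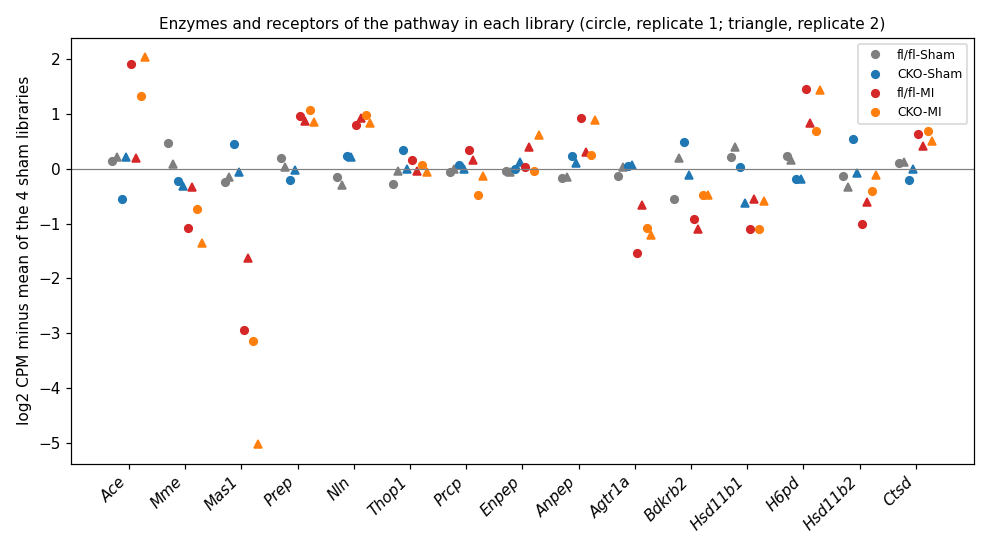
Log2 CPM of enzymes and receptors of the pathway in each library, minus the mean of the 4 sham libraries, with circles and triangles for replicates 1 and 2 and a colour for each group. Ace lay above 0 and Mas1 below 0 in all MI libraries, and Prep and Nln formed tight groups above the sham libraries.

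Agtr1a (ENSMUSG00000049115, chromosome 13 from 30336441 to 30382867, plus strand), the main angiotensin II receptor of the mouse heart, was 2.14-fold lower after MI. Its level was 15.8 and 17.6 CPM in fl/fl-Sham, 17.9 and 18.1 in CKO-Sham, 5.97 and 10.9 in fl/fl-MI, and 8.16 and 7.46 in CKO-MI. The highest MI library was below the lowest sham library. The log2 fold change was −1.10 ± 0.20 (SE, adjusted p = 0.00594; exact permutation p = 0.0286), and it passed with each library left out in turn (−1.34 to −0.93). On FPKM it was −0.45 and on TPM 0.0089, where the median of all genes was 0.41 and 0.92, so that Agtr1a was below the typical gene by 0.86 and 0.91.

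The transcript ENSMUST00000066412 took 97.5% to 99.5% of the summed FPKM of Agtr1a transcripts in each library. A gene within an intron on the same strand, Gm48161, was at no more than 2.05 CPM. Agtr1b, the paralog used in the adrenal gland, had 4 counts in CKO-Sham 1 and none in the other libraries, where 3 read pairs would have been 0.113 to 0.205 CPM. Its level was thus not detectable at this depth.

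Endothelial markers were lower after MI as well, with the sums and counts given above. The mural markers Rgs5, Pdgfrb, Acta2, Myh11 and Tagln summed to 1285 to 1399 CPM in sham and 486 to 672 in MI. Most of this sum was Rgs5, at 874 to 1102 CPM in sham and 203 to 401 in MI. Rgs5 and Myh11 were lower, where 18.3% of all genes were, and the other 3 did not pass. The median log2 fold change of the 5 was −0.14. The closest genes over the 8 libraries were Ybx2 (r = 0.998) and Pecam1 (r = 0.993), an endothelial marker that had been listed as such. The part of these cell types in the Agtr1a level was not tested.

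Of 24 genes for signalling and control of the angiotensin receptor, 7 were higher, 5 lower and 12 did not pass after MI (median 0.36), where 40.4% of all genes passed. On leaving out any sham or CKO-MI library, 5 to 7 passed, and 23.1% to 31.0% of all genes. The phospholipase C genes Plcb1 and Plcb4, which act below Gq, had log2 fold changes of −1.23 ± 0.13 and −0.73 ± 0.11 and were lower, as was Rgs5, a brake on Gq that marks pericytes (−1.69 ± 0.16). Of these 3, Plcb4 turned to 0.38 on TPM, which left it 0.54 below the typical gene. Gna13, a G protein alpha subunit, was higher by 0.68 ± 0.11, and Grk5, a receptor kinase, by 1.04 ± 0.20. Adjusted p values for these 5 genes ran from 0.000739 to 0.00661. Nox4, an oxidase induced in fibroblasts, was at 1.85 to 6.05 CPM in sham and at 65.3, 3.08, 26.8 and 27.2 in the MI libraries (3.15 ± 0.86, adjusted p = 0.0254), so that fl/fl-MI 2 again lay inside the sham range. Rgs2, another brake on Gq, was at 238 CPM in fl/fl-MI 2 and at 12.9 to 21 CPM in the other 7 libraries, and did not pass. Rac1 and Grk2 did not pass (0.10 ± 0.10 and −0.13 ± 0.10).

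Agtrap (ENSMUSG00000029007, chromosome 4 from 148077061 to 148088031, minus strand) encodes a membrane protein that binds the angiotensin receptor and promotes its internalization. It was at 30.3 and 33.7 CPM in fl/fl-Sham, 28.9 and 33.9 in CKO-Sham, 29.9 and 33.7 in fl/fl-MI, and 32.3 and 36.6 in CKO-MI. The groups overlapped, and the log2 fold change was 0.06 ± 0.11 (adjusted p = 0.66). On FPKM it was 0.55 and passed, which is 0.14 above the median of all genes on that scale. By the FPKM listed per gene, Agtrap lay above Agtr1a in both conditions. It was at 5.47 to 6.56 against 4.36 to 5.21 in sham and at 8.28 to 10.9 against 2.73 to 4.25 in MI. By the FPKM of the main transcript of each, Agtr1a was the higher in CKO-Sham 1 (6.53 against 5.80) and the lower in all other libraries.

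Neither steroid receptor passed the test after MI. Nr3c2 (ENSMUSG00000031618, chromosome 8 from 76899442 to 77245012, plus strand), the mineralocorticoid receptor, was at 12.4 and 15.8 CPM in fl/fl-Sham, 17.7 and 17.6 in CKO-Sham, 7.21 and 19.1 in fl/fl-MI, and 8.97 and 10.4 in CKO-MI. In 3 MI libraries it was below all sham libraries, and in fl/fl-MI 2 it was above them. The log2 fold change was −0.48 ± 0.29 and did not pass (adjusted p = 0.219; exact permutation p = 0.171). Without fl/fl-MI 2 it was −0.92 with an adjusted p of 0.00168, and on FPKM it was 0.013, which is 0.40 below the typical gene.

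Nr3c1 (ENSMUSG00000024431, chromosome 18, minus strand), the glucocorticoid receptor, was at 65.3 and 62.4 CPM in fl/fl-Sham, 72.2 and 64.8 in CKO-Sham, 97.6 and 66.3 in fl/fl-MI, and 103 and 81.8 in CKO-MI. Again 3 MI libraries were above all sham libraries and fl/fl-MI 2 lay among them. The log2 fold change of 0.39 ± 0.15 did not pass (adjusted p = 0.0738; exact permutation p = 0.0571), and without fl/fl-MI 2 it was 0.52 with an adjusted p of 0.00676. On FPKM it was 0.85 and passed (adjusted p = 0.00458, limma), which is 0.44 above the median of all genes on that scale.

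Per length, the glucocorticoid receptor was the more abundant of the pair in each library. The ratio of Nr3c1 to Nr3c2 FPKM was 4.45 and 3.33 in fl/fl-Sham, 3.44 and 3.11 in CKO-Sham, 11.4 and 2.93 in fl/fl-MI, and 9.65 and 6.65 in CKO-MI. It exceeded all sham values in 3 MI libraries and was below them in fl/fl-MI 2. The mean log2 ratio was 1.83 ± 0.23 in sham and 2.77 ± 0.87 in MI (SD, n = 4 each), and the difference of 0.94 did not reach the threshold (exact permutation p = 0.143). The transcript split of either receptor could not be read: the share of Nr3c2 assigned to ENSMUST00000109912 was 0% in CKO-Sham 1 and 100% in CKO-Sham 2, and the share of Nr3c1 assigned to ENSMUST00000115571 was 22.6% and 81.7% in the same libraries.

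Enzymes that set the steroid supply of these receptors were measured too. Hsd11b1, which regenerates active glucocorticoid within cells, was at 9.62 to 19.5 CPM in sham and 6.92 to 10.2 in MI. Its log2 fold change of −0.83 ± 0.22 (adjusted p = 0.0225) turned to 0.24 on TPM, which left it 0.68 below the typical gene. H6pd, which supplies the cofactor of that enzyme, was higher by 1.14 ± 0.20 (adjusted p = 0.00533). Hsd11b2, which inactivates glucocorticoid and so keeps the mineralocorticoid receptor for aldosterone in the kidney, was at 0.567 to 1.66 CPM in all libraries and did not pass (−0.54 ± 0.27, adjusted p = 0.146).

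Of 20 listed target genes of the steroid receptors, 17 were tested (Scnn1g was not analysed here), and after MI 8 were higher, none was lower and 9 did not pass (median 1.03), a share near the 40.4% of all genes. Without any 1 of the sham libraries 5 passed, and 23.1% to 27.3% of all genes. Many of them answer to other signals as well. Atp1b1, which encodes the beta subunit of the sodium pump, was higher by 1.18 ± 0.11, Cebpd, a transcription factor, by 1.09 ± 0.17, and Fkbp5, a cochaperone of the receptors, by 1.06 ± 0.21 (adjusted p = 0.000789, 0.0037 and 0.00842). Pdk4, which restrains glucose oxidation, was at 76.0 to 125 CPM in sham and at 376, 1201, 633 and 202 in the MI libraries (2.48 ± 0.47, adjusted p = 0.00688). Sgk1, the kinase through which aldosterone acts on sodium channels, was at 150 to 206 CPM in sham and at 99.8, 153, 166 and 44.7 in the MI libraries, and did not pass (−0.59 ± 0.38, adjusted p = 0.242). Dusp1, Ddit4 and Mt1 did not pass, and each was highest in fl/fl-MI 2 (480, 186 and 224 CPM).

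Among 10 chaperones and cofactors of the steroid receptors, 6 were higher, none was lower and 4 did not pass (median 0.62), where 40.4% of all genes passed. Without fl/fl-Sham 2, 3 passed, and 23.1% of all genes. They were led by Hsp90aa1, which holds the receptors ready to bind hormone, at 75.2 to 93.7 CPM in sham and 192 to 418 in MI (1.78 ± 0.24, adjusted p = 0.00209). Stip1, Hsp90ab1 and the corepressor Ncor1 were higher by 0.96, 0.73 and 0.40, while Fkbp4 and Ptges3 did not pass. Nor did Ncoa3, a coactivator (−0.40, adjusted p = 0.0533), but with DESeq2, with RLE scaling or without mitochondrially encoded genes 1 gene of the list, Ncoa3, passed as lower. It is named here after its values were seen.

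Lnpep (ENSMUSG00000023845, chromosome 17 from 17521410 to 17625050, minus strand) had the smallest p of the 8 genes. It encodes insulin-regulated aminopeptidase, which binds angiotensin IV and travels with the glucose transporter Slc2a4. Its level was 74.2 and 65.5 CPM in fl/fl-Sham, 65.5 and 67.4 in CKO-Sham, 140 and 139 in fl/fl-MI, and 163 and 139 in CKO-MI. The MI libraries were 2.13-fold higher, with each about as close to the others as the sham libraries were. The log2 fold change was 1.09 ± 0.10 (SE, adjusted p = 0.000746; exact permutation p = 0.0286), and it passed with each library left out in turn (1.0 to 1.14).

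The full-length transcript of Lnpep, ENSMUST00000041047 with 18 exons, took 97.2% to 99.5% of the summed FPKM of its transcripts. It was at 4.33 to 4.73 FPKM in sham and 12.5 to 14.8 in MI. In each library the FPKM listed for the gene, a separate value, was below that of this transcript. By the FPKM listed per gene, Lnpep lay below Agtr1a in sham libraries, at 3.71 to 4.04, and above it in MI libraries, at 10.6 to 12.6. Unlike Ace, Lnpep in fl/fl-MI 2 was level with the other MI libraries. Wipi1, which acts in autophagy, and Ppp2ca, a phosphatase catalytic subunit, had the closest pattern over the 8 libraries (r = 0.998 for each). Of 6 partners of the glucose transporter vesicle, where 40.4% of all genes passed, 1 was higher (Lrp1, 1.39 ± 0.27, adjusted p = 0.00722) and 5 did not pass, among them Slc2a4 itself (0.12 ± 0.29) and Vamp2 (−0.02 ± 0.11). Without fl/fl-MI 1 and without fl/fl-MI 2, 2 and 3 passed, and 48.5% and 50.7% of all genes.

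Atp6ap2 (ENSMUSG00000031007, chromosome X from 12587801 to 12617049, plus strand), the prorenin receptor and an accessory protein of the vacuolar proton pump, was 1.37-fold higher after MI. It was at 25.2 and 24.6 CPM in fl/fl-Sham, 25.9 and 25.7 in CKO-Sham, 45.7 and 31.1 in fl/fl-MI, and 33.5 and 29.5 in CKO-MI. All MI libraries were above the narrow range of the sham libraries, and fl/fl-MI 1 stood highest. The log2 fold change was 0.46 ± 0.14 (adjusted p = 0.0336; exact permutation p = 0.0286). The call was lost on leaving out any library except fl/fl-MI 1 or fl/fl-MI 2, with adjusted p values up to 0.114. The value was 0.29 without fl/fl-MI 1 and 0.58 without fl/fl-MI 2.

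The genes closest to Atp6ap2 over the 8 libraries were the matrix proteoglycan genes Lum (r = 0.982) and Ogn (r = 0.980), of which Lum is a fibroblast marker. The sum of the 5 fibroblast markers, given with Ace, was above the sham range in each MI library, as Atp6ap2 was. Among the MI libraries, however, CKO-MI 2 had the lowest Atp6ap2 and a sum of 2229 CPM, exceeded only by fl/fl-MI 1. The part of fibroblasts in the Atp6ap2 level was not tested. Of 14 subunits of the proton pump, 6 were higher, 2 lower and 6 did not pass (median 0.29), where 40.4% of all genes passed. On leaving out any sham library or CKO-MI 2, 4 or 5 passed, and 23.1% to 30.1% of all genes. The other accessory subunit, Atp6ap1, was higher by 0.68 ± 0.09 (adjusted p = 0.00213), and Atp6v1b2, Atp6v1c1 and Atp6v1h by 0.60, 0.51 and 0.71. Atp6v1g1 was lower (−0.41 ± 0.11, adjusted p = 0.022) and turned to 0.15 on FPKM, which left it 0.26 below the typical gene.

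Wall stress and matrix genes give the setting in which these changes were seen. Of 14 listed, 11 were higher after MI, none was lower and 3 did not pass (median 2.47), where 22% of all genes were higher. The natriuretic peptide gene Nppb rose by 2.79 ± 0.25 and the matricellular gene Ccn2 by 3.56 ± 0.28 on the log2 scale. These changes exceeded those of all 4 pathway genes that passed.

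The MI comparison was then made within each genotype label. In the libraries labelled fl/fl, 1 of the 8 genes passed, against 18.5% of all genes: Lnpep, by 0.99 ± 0.14 (adjusted p = 0.00778). Agtr1a (−0.98 ± 0.28, adjusted p = 0.0514) and Atp6ap2 (0.63 ± 0.19, adjusted p = 0.0618) lay just outside, and Ace had 1.11 ± 0.54 (adjusted p = 0.186). In the libraries labelled CKO, 3 passed, against 24.7% of all genes: Lnpep (1.19 ± 0.14, adjusted p = 0.00478), Agtr1a (−1.21 ± 0.28, adjusted p = 0.0245) and Ace (1.84 ± 0.55, adjusted p = 0.0498). All 3 were in the same direction under both labels. The Lnpep call was lost in fl/fl without fl/fl-Sham 1 (1.09) or fl/fl-Sham 2 (0.91) and in CKO without CKO-Sham 1 (1.17). In CKO, the calls of Ace and Agtr1a were lost on leaving out any sham or CKO-MI library. Their values there were 1.45 to 2.27 and −1.29 to −1.14. Fewer of all genes passed in each of these fits than with all libraries. Leaving out a library left the other alone for its group, with its spread assumed to be that of the other groups. Without fl/fl-MI 2, 6 of the genes passed in fl/fl, among them Ace at 1.72 (adjusted p = 0.0102), where 29.5% of all genes passed. Without fl/fl-MI 1 Ace was at −0.012 there (adjusted p = 0.985). Agt turned to −1.69 in fl/fl without fl/fl-MI 2 and to −1.96 in CKO without CKO-MI 2, and neither passed. The interaction of genotype and MI, which tests whether these effects differ, passed for none of the 8 genes (0 of 14028 genes, 0%), while DESeq2 called none of the 8 and 131 of all genes. At an unadjusted p under 0.05 it was 0 of 8, where 8.49% of all genes passed. The interaction value of Nr3c2 was −0.76 with all libraries, −1.29 without fl/fl-MI 1 and 0.10 without fl/fl-MI 2. In the fit without fl/fl-MI 1, fl/fl-MI 2 with its high atrial genes stood alone for its group.

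**Figure D4:**
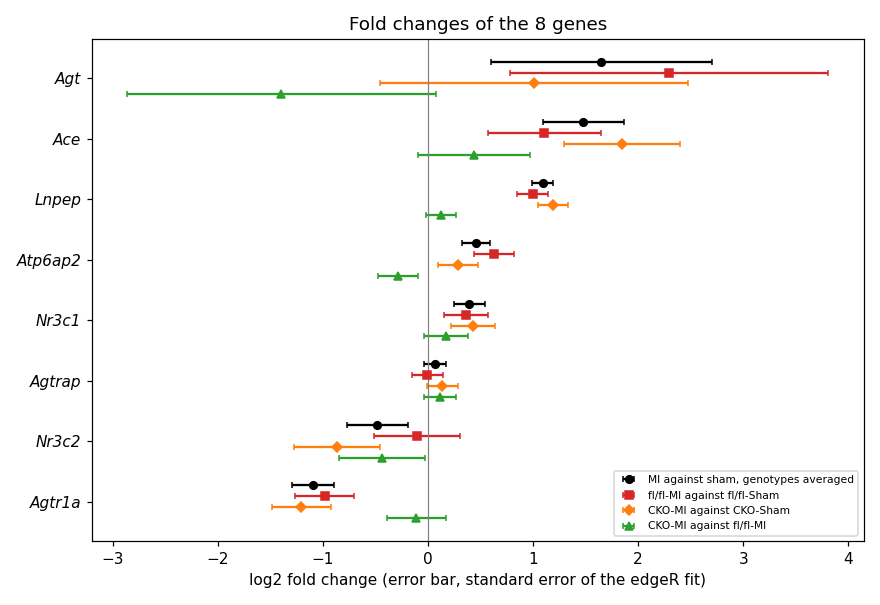
Log2 fold changes of the 8 genes (horizontal axis) in 4 comparisons, with the standard error of the edgeR fit as bars. The MI values of Lnpep were 0.99 and 1.19 and those of Agtr1a −0.98 and −1.21 in the fl/fl and CKO libraries, while the bars of Agt spanned more than those of any other gene.

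The libraries labelled CKO-MI were compared with those labelled fl/fl-MI, the question for which the study was made. None of the 8 genes passed, as was so for all 14028 genes (0%), and at an unadjusted p under 0.05 the counts were 0 of 8 and 8.31% of all genes. DESeq2 called none of the 8 and 207 of all genes (1.48%). The estimates were 0.12 ± 0.14 for Lnpep, −0.11 ± 0.28 for Agtr1a, 0.44 ± 0.54 for Ace, −0.29 ± 0.19 for Atp6ap2, 0.17 ± 0.21 for Nr3c1, −0.44 ± 0.41 for Nr3c2 and 0.11 ± 0.15 for Agtrap. For Agt it was −1.40 ± 1.47, so that changes in either direction of several fold were not detectable. Without fl/fl-MI 1, Ace passed as higher (1.54, adjusted p = 0.0422) and Nr3c2 as lower (−0.96, adjusted p = 0.0257), where 11.9% of all genes passed and fl/fl-MI 2 stood alone for its group. Without fl/fl-MI 2, Agt (2.59), Agtr1a (0.39), Nr3c2 (0.42), Ace (−0.18) and Nr3c1 (−0.082) changed sign and none of the 8 passed.

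Among the target genes of the steroid receptors, none of the 17 passed the adjusted test in this comparison, as was so for all genes. At an unadjusted p under 0.05, 6 were lower, where 5.24% of all genes were, and 1 was higher. The median was −0.90 beside −0.01 for all genes, and 15 of 17 had values below 0, as had 51.2% of all genes. The genes that differed most included Errfi1 (−2.14), Dusp1 (−1.78) and Per1 (−1.70), each highest in fl/fl-MI 2 (463, 480 and 317 CPM) and lowest among the MI libraries in CKO-MI 2 (35.7, 33.9 and 32.3 CPM). These values moved with single libraries. Without fl/fl-MI 2 the median was −0.33 and 3 were lower at an unadjusted p under 0.05 (6.03% of all genes). Without CKO-MI 2 the median was −0.41 and none was (3.66%). Without CKO-MI 1, 11 were lower (3.14%). Without fl/fl-MI 1, which left fl/fl-MI 2 with its high atrial genes alone for the group, 11 were lower (13.5%), and 5 passed the adjusted test, as did 11.9% of all genes.

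Between the sham libraries of both labels none of the 8 genes passed at an adjusted p under 0.05, and 0.00713% of all genes did; DESeq2 called none of the 8 and 34 of all genes. At an unadjusted p under 0.05 the counts were 0 of 8 and 3.89% of all genes. The estimates ran from −0.30 ± 0.54 for Ace to 0.32 ± 0.41 for Nr3c2.

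**Figure D5:**
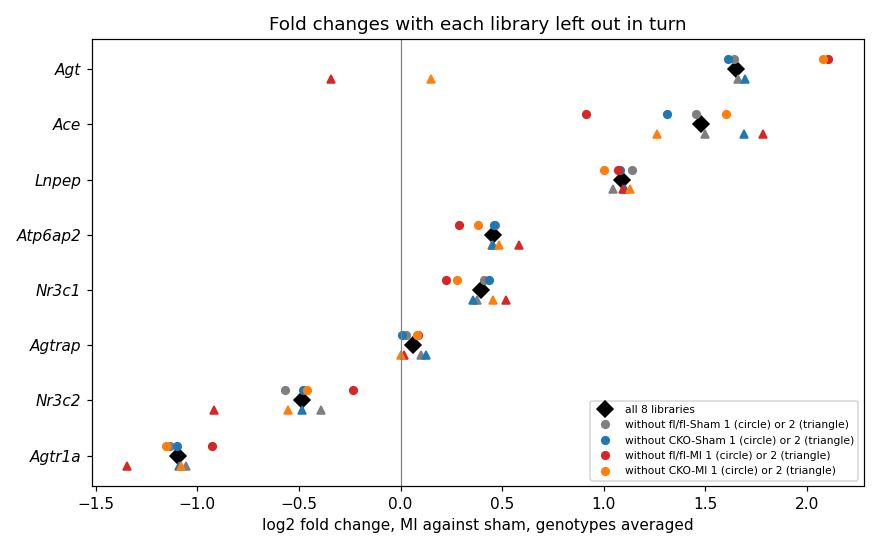
Log2 fold change of MI against sham with the genotypes averaged (horizontal axis) for each of the 8 genes, from all 8 libraries (diamond) and with each library left out (points, coloured by the group of the library left out). Lnpep stayed between 1.0 and 1.14 and Agtr1a between −1.34 and −0.93, and Agt ranged from −0.34 to 2.10.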

How the data were processed

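Poly(A) RNA of 8 mouse myocardium libraries was sequenced by the authors as paired reads after strand marking with dUTP, and trimmed with cutadapt 1.9 per the submitters' processing notes; the aligner and counter are not given in the sources used here. In each library the authors deposited, per gene and per transcript, a whole-number count and its FPKM; counts pile up at multiples of 4 per read pair, and FPKM is scaled to length and library size. Whether counting used strand is not given. Gene identifiers matched GENCODE M21 (GRCm38) for 99.7%, with all 8 members at the same coordinates.

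Libraries were grouped by their labels. The members and lists were chosen with earlier results of these data known. Genes whose FPKM averaged 0.5 or more over the libraries were tested with edgeR 4.0.16 in R 4.3.3 (quasi-likelihood, TMM, all 8 libraries, a mean per group), with p adjusted by Benjamini-Hochberg over 14028 genes. Standard errors were taken from the fold change and F statistic. The 6 comparisons were MI against sham with genotypes averaged or within each, genotype within MI or sham, and the interaction. On simulated data of the averaged comparison, 103 of 200 changed genes were recovered with 10 false calls. The simulation changed only those 200 of 14028 genes and held no genotype difference. In the real data 40.4% of genes passed, so these rates need not hold there. Single genes and ratios had exact two-sided permutation tests (SciPy 1.17.1).

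Genes named were all members, in each list up to 5 with the smallest adjusted p and up to 3 abundant ones that did not pass, Ren1, Cma1, Hsd11b1, Hsd11b2, Cyp11b2, Mas1, Agtr1b, the 2 genes most correlated with each member that passed, and Piezo1 and Esr1. Anpep, Nox4, Sgk1, Errfi1, Per1 and the genes of the closing section were named after their values were seen. Some genes that this rule named are not reported here, though the list counts hold them. Alternatives were DESeq2 1.42.0, RLE, other filters, counts divided by 4, removal of mitochondrially encoded genes, limma 3.58.1 on FPKM or TPM, the replicate number as a block, fits of only the libraries compared, and each library left out.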

Additional observations from a re-analysis of the deposited data

How the results depend on the processing

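With each library left out in turn, the number of the 8 genes called ranged from 2 to 6 for MI against sham with the genotypes averaged (4 with all libraries), from 0 to 6 in the fl/fl libraries (1) and from 0 to 5 in the CKO libraries (3). It ranged from 0 to 2 for CKO-MI against fl/fl-MI and from 0 to 1 for the interaction, both 0 with all libraries. The share of all genes called moved too in each of these comparisons when a library was left out. A minimum mean FPKM of 5 left 2 calls in the averaged comparison and 1 in CKO. In the averaged comparison Agtr1a was then no longer tested and Atp6ap2 lost its call (0.38, adjusted p = 0.0622). Of the 5524 genes then tested, 52.6% and 38.1% passed in these comparisons. In the averaged comparison 6 passed on log2(FPKM + 1) or log2(FPKM + 0.1) and 5 on log2(TPM + 1), as did 56.1%, 56.7% and 78.6% of all genes. In fl/fl the count was 3 with DESeq2, 2 with no filter or without mitochondrially encoded genes, 0 with only the libraries compared, 3 on log2(FPKM + 1) or log2(FPKM + 0.1) and 5 on log2(TPM + 1). In CKO it was 5 on each of those 3 scales. The share of all genes called in fl/fl moved as well, from 18.5% to 28.8% with DESeq2. It was 8.00% with no filter, 17.7% without mitochondrially encoded genes and 1.42% with only the libraries compared. On log2(FPKM + 1), log2(FPKM + 0.1) and log2(TPM + 1) it was 37.5%, 38.8% and 67.0% in fl/fl. In CKO it was 36.8%, 38.4% and 62.9% on those scales, against 24.7% in the main test. The median gene shifted by 0.41, 0.56 and 0.92 on them, and 89.4%, 89.6% and 97.5% of all calls in the averaged comparison were then higher in MI, against 54.6% in the main test.

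Of the 6 vesicle partners, 2 passed with DESeq2, at a minimum FPKM of 5 or without mitochondrially encoded genes, and 2, 3 and 5 on log2(FPKM + 1), log2(FPKM + 0.1) and log2(TPM + 1). In the averaged comparison, values that changed sign were Agt without fl/fl-MI 2 (−0.34), whose range with each library left out ended at 2.10, Agtr1a on TPM (0.0089), Nr3c2 on FPKM + 1, FPKM + 0.1 and TPM (0.013, 0.0036 and 0.45) and Agtrap at a minimum FPKM of 5 (−0.012); beyond the scale shift the cause was not tested. With the replicate number as a block, 4 genes were called in the averaged comparison (5085 of all genes, against 5663), 1 in fl/fl and 2 in CKO, and Agt was at 0.45. Deviations of same-numbered libraries correlated between −0.21 and 0.06. With 2 libraries a group, these values cannot tell whether the numbers mark pairs. Crossing the numbers of the CKO-MI libraries, an alternative chosen after seeing the data, left 0 genes called for CKO-MI against fl/fl-MI. With 2 libraries a group, an exact test within a genotype cannot give a p below 0.333.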

Other observations

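Star, which moves cholesterol into mitochondria and begins steroid synthesis, was listed here as a marker of adrenal cortex. It was at 3.44 and 3.75 CPM in fl/fl-Sham, 4.78 and 5.41 in CKO-Sham, 12.6 and 7.53 in fl/fl-MI, and 9.90 and 21.5 in CKO-MI. The sham and MI libraries did not overlap, and the log2 fold change was 1.56 ± 0.29 (adjusted p = 0.0063, edgeR's quasi-likelihood test). The other adrenal markers were near 0 in all libraries, with Cyp11a1 at no more than 0.444 CPM and Cyp21a1 at no more than 0.0189 CPM.

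The genes whose log2 CPM followed Agt most closely over the 8 libraries were Fetub (Pearson r = 0.963), Scd2 (r = 0.953) and Mal (r = 0.942), given as a description. Fetub, a liver-secreted protease inhibitor, was at 1.07 to 1.63 CPM in sham, 3.64 in fl/fl-MI 2, 1.89 in CKO-MI 2, and 0.708 and 0.591 in fl/fl-MI 1 and CKO-MI 1. Mal, a myelin and membrane-raft gene, was at 11 to 13.9 CPM in sham and at 20.2 and 20.6 CPM in fl/fl-MI 2 and CKO-MI 2, against 9.33 and 9.39 CPM in the other MI libraries.

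Mme, the membrane protease neprilysin, can form angiotensin 1-7 from angiotensin I and was too low to be tested with the other genes. It was at 5.16 to 8.94 CPM in sham and 2.51 to 5.14 in MI, with a log2 fold change of −0.78 ± 0.24 in a fit without the level limit (adjusted p = 0.043).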
